A study of Mus musculus with 13 samples.

Results

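A pair of RNA libraries labelled as untreated mouse glia was compared, 1 from hippocampus and 1 from cortex. The series as a whole holds 13 samples. They comprise 7 libraries of hippocampal tissue from 3xTg mice given AAV9 vectors and 6 libraries labelled as primary glia of ICR mouse pups taken on postnatal day 1. In the culture series each region gave 3 libraries: control lentivirus without amyloid beta (called untreated here), control lentivirus with amyloid beta, and lentiviruses for Nurr1 (the protein of Nr4a2) and Foxa2 with amyloid beta, called N+F. All 6 culture libraries are thus labelled as given a lentivirus, and both libraries of the pair as given the control virus. The number of pups or cultures behind a library is stated neither in the labels nor in the tables. The members are the genes that reached 1 CPM (a gene's counts when the library total is scaled to 1000000) in at least 1 of the 2 untreated libraries: 14496 of the 24542 gene symbols of the culture table.

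The hippocampus and the neocortex are adjoining parts of the pallium. Both are built mostly of glutamatergic pyramidal neurons, with GABAergic interneurons, astrocytes, oligodendrocytes and microglia among them. In the hippocampus the pyramidal neurons form the CA fields and the granule neurons form the dentate gyrus, whereas the neocortex is arranged in layers whose neurons are marked by different transcription factors. The choroid plexus, an epithelium that secretes cerebrospinal fluid, and the ciliated ependyma line the ventricles against which the hippocampus lies.

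The untreated hippocampal library held 67579963 counts and the untreated cortical library 52189025, so that 3 counts, used here as the floor, correspond to 0.0444 and 0.0575 CPM. The other 4 culture libraries held between 60465788 and 78273121 counts. With 1 library a region and condition, the untreated pair has no replicate check and no p-value is given for it. Intervals on ratios are exact 95% intervals from the 2 counts and cover counting error only, not the spread between cultures.

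The content of both untreated libraries went against their label of cultured glia. Transcripts of 12 pan-neuronal genes summed to 8414 CPM in the hippocampal and 9166 CPM in the cortical untreated library, against 542 to 693 CPM in the 4 amyloid beta libraries. For 10 genes of excitatory neurons the sums were 8943 and 8771 CPM, against 18.7 to 33.0 CPM. Snap25, a SNARE protein of synaptic vesicle release, stood at 2093 and 2709 CPM, and at 0.509, 1.42, 0.546 and 1.09 CPM in the amyloid beta libraries. The 13 oligodendrocyte genes, which include the myelin gene Mbp, summed to 9930 and 8302 CPM against 188 to 504 CPM. Red blood cell genes summed to 156 and 214 CPM against 0.132 to 0.678 CPM. In contrast, the summed level of 14 astrocyte genes was 8262 and 9721 CPM, inside the range of 6826 to 11995 CPM of the amyloid beta libraries, whereas 20 reactive astrocyte genes summed to 302 and 198 CPM against 18594 to 28872 CPM.

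The Y-linked genes Ddx3y, Uty, Eif2s3y and Kdm5d had 0 counts in both untreated libraries and between 518 and 4129 counts in each amyloid beta library. Xist, the transcript that silences one X chromosome in female cells, stood at 944 and 1142 CPM in the untreated pair and at 259 to 582 CPM in the other 4. Across the 24542 symbols, genes not being independent replicates, Spearman's rho of log2(CPM + 1) was 0.982 between the untreated libraries and 0.862 to 0.883 between either of them and an amyloid beta library. Over the 23003 symbols shared with the tissue table, it was 0.876 to 0.903 between an untreated library and the 7 tissue libraries, and 0.776 to 0.815 for the amyloid beta libraries. The source of these differences was not tested, and for this reason the pair is called here the untreated hippocampal and cortical libraries and not glia. Its 2 libraries resembled each other in these respects, and a difference between them in a bulk library cannot tell more cells of a type from more RNA per cell.

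**Figure D1:**
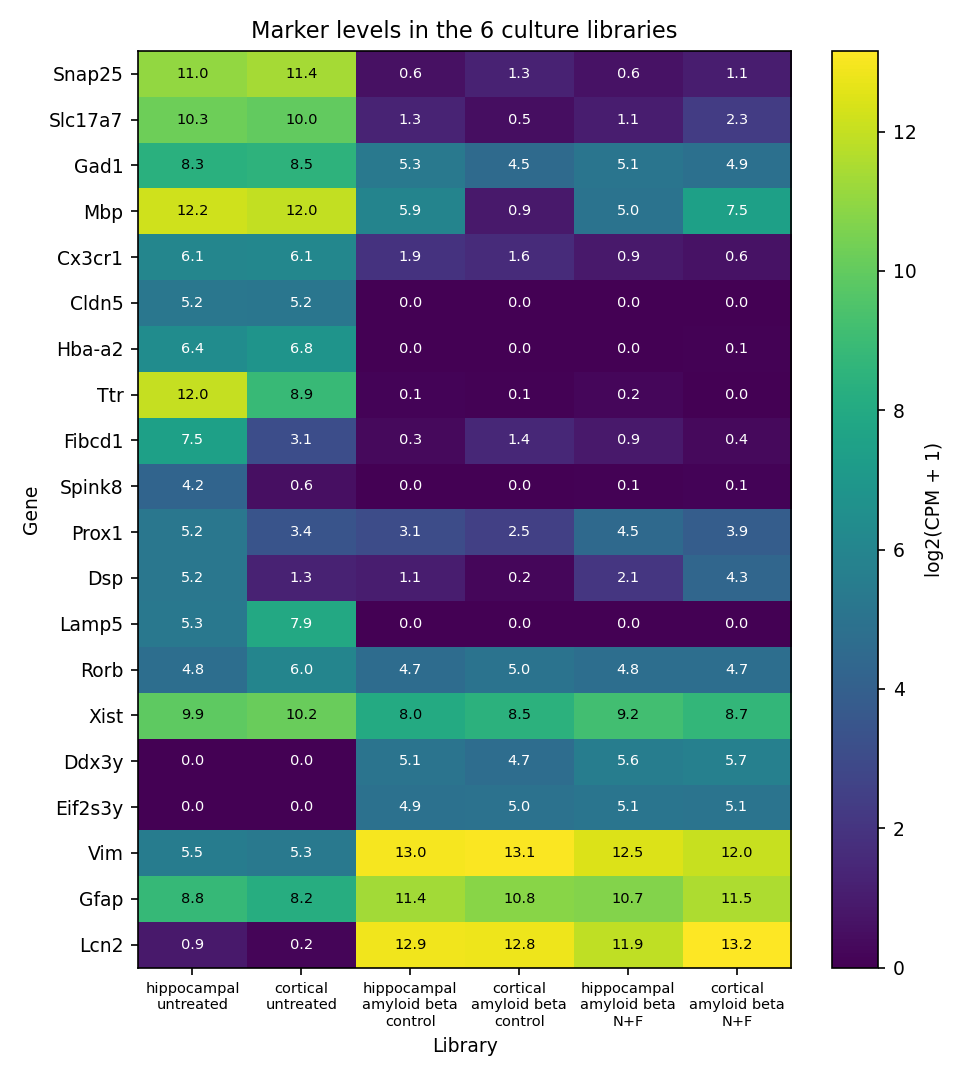
Levels of 20 marker genes in the 6 culture libraries, as log2(CPM + 1), with 1 column per library and each value printed in its cell. Both untreated columns are high for neuron, myelin and blood genes and at 0 for Ddx3y and Eif2s3y, and the regional genes Ttr, Fibcd1, Dsp and Lamp5 differ between those 2 columns.

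Most genes had nearly the same level in both libraries. On the scale of log2(CPM + 1), hippocampal minus cortical, the median difference over the 14496 genes was 0.0028, the middle 90% lay between -0.65 and 0.79, and 94.5% of genes were less than 2-fold apart. At least 2-fold higher in the hippocampal library were 459 genes (3.17% of those kept), and 334 genes (2.3%) were at least 2-fold higher in the cortical library. These shares are the background for the list counts of the untreated pair that follow. Paired values below give the hippocampal library first, and log2 stands for this difference. At 4-fold the numbers were 98 and 43. The genes at the edge of the threshold were Wscd2 at 1.0009 and Neb at 0.9996 on the hippocampal side, and Pde7b at -0.998, just within 2-fold, on the cortical side. Among genes that reached 10 CPM in either library, 257 were higher and 242 lower in the hippocampal library, so that the 2 directions were nearly even among them.

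Gene lists of general brain cell types differed little, and 94.5% of all genes kept were likewise less than 2-fold apart. No gene of the pan-neuronal (12), astrocyte (14), oligodendrocyte (13), oligodendrocyte precursor (11), microglia (14) or endothelial (12) lists was 2-fold apart. Of these 6 lists the microglial genes were the closest, with a log2 ratio range from -0.32 to 0.14, among them Cx3cr1, the fractalkine receptor, at 65.5 and 67.9 CPM and Csf1r, the receptor on which microglia depend, at 120.0 and 120.3 CPM. All 13 oligodendrocyte genes were slightly higher in the hippocampal library, with a median of 0.28 (median of all genes 0.0028) and a range from 0.13 to 0.64. Mbp stood at 4771 and 4011 CPM, and Myrf, a transcription factor of myelin genes, at 94.7 and 60.2 CPM. Gfap, the astrocyte intermediate filament, was at 448 and 291 CPM (log2 0.62). Markers of circulating leukocytes did not reach 1 CPM for any of 11 genes, and of 13 hypothalamic and midbrain genes only 2 and of 11 cerebellar and hindbrain genes only 3 did.

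**Figure D2:**
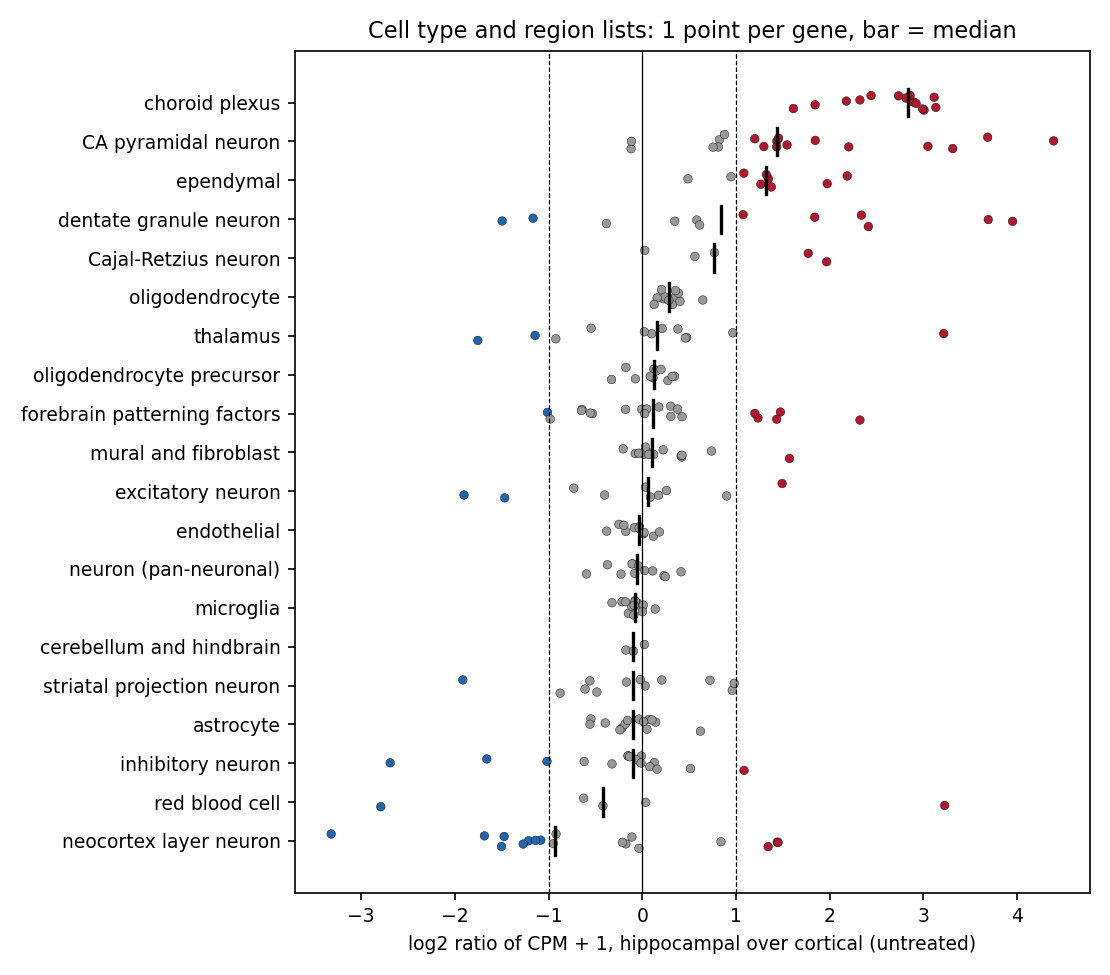
The log2 ratio of CPM + 1, hippocampal over cortical, for every kept gene of the cell type and region lists (1 point per gene, 1 row per list). Black bars are list medians and dashed lines 2-fold. The choroid plexus list lies wholly to the right with a median of 2.83, the neocortex layer list has its median at -0.93, and the microglia, endothelial and astrocyte lists lie between the dashed lines.

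Choroid plexus genes differed throughout. All 14 listed genes were at least 2-fold higher in the hippocampal library, with a median of 2.83 and a range from 1.61 to 3.13, and their sum was 5917 CPM against 900.5 CPM. Ttr, transthyretin, the carrier of thyroxine and retinol-binding protein in cerebrospinal fluid, was at 4114 CPM in the hippocampal and 468 CPM in the cortical library, a ratio of 8.78-fold (95% counting interval 8.67 to 8.90). Kl, which encodes Klotho, was at 120.3 and 15.3 CPM, and Folr1, the folate receptor of this epithelium, at 21.1 and 1.92 CPM. The ion and water transport genes Slc4a5 (23.4 and 1.82 CPM), Aqp1 (20.4 and 2.05) and Kcnj13 (27.0 and 4.16) had log2 ratios of 3.11, 2.81 and 2.44. Sostdc1, a secreted BMP and Wnt antagonist, was at 51.6 and 5.61 CPM and Enpp2, autotaxin, at 1349 and 375 CPM. None of the 14 genes was at 0 in the cortical library. In the amyloid beta libraries Ttr lay at 0.0803, 0.0659, 0.165 and 0 CPM, and of the choroid plexus genes that reached 1 CPM there 0 of 8 were 2-fold apart in the amyloid beta control pair. In the N+F pair 5 of 9 were at least 2-fold higher in the hippocampal library and 3 lower, with sums of 682 and 920.5 CPM. Of all members measured in the N+F pair 17.4% were higher and 6.0% lower, and in the amyloid beta control pair 3.81% and 2.06%.

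Ependymal genes were low in both libraries and mostly higher in the hippocampal one. Of 10 listed genes 9 were in the table and kept, 7 of them at least 2-fold higher and 0 lower, with a median of 1.32 and sums of 55.0 and 17.5 CPM. Foxj1, the transcription factor that switches on motile cilia genes, was at 20.2 and 7.34 CPM, a ratio of 2.75-fold (95% counting interval 2.45 to 3.09). Hydin, a component of the axoneme's central apparatus, was at 5.30 and 0.383 CPM. In the amyloid beta control pair 5 of 7 measured ependymal genes were also at least 2-fold higher in the hippocampal library, with Foxj1 at 571 and 218 CPM. The share over all members measured in that pair was 3.81%. In the N+F pair 0 of 7 were 2-fold apart, although 6 of 7 were in the same direction. Of all members measured in the N+F pair 17.4% were at least 2-fold higher in hippocampal and 6.0% lower.

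Genes of hippocampal pyramidal neurons formed the next group. Of the 18 listed genes of CA pyramidal neurons 12 were at least 2-fold higher in the hippocampal library and 0 lower, with a median of 1.43. Fibcd1, a CA1 marker that encodes a chitin-binding receptor, was at 178 CPM in the hippocampal and 7.53 CPM in the cortical library, a ratio of 23.6-fold (95% counting interval 21.3 to 26.2). Spink8, a serine protease inhibitor gene of CA1, stood at 18.0 and 0.479 CPM, and Npy2r, the Y2 receptor for neuropeptide Y, at 55.2 and 4.66 CPM. Both genes were more than 10-fold apart. Hpca, which encodes the calcium sensor hippocalcin, was at 1419.5 and 394 CPM (log2 1.85), and Wfs1, the gene mutated in Wolfram syndrome and a CA1 marker, at 195 and 71.6 CPM (log2 1.44). Rgs14, a regulator of G-protein signalling of CA2 neurons, and Amigo2, a cell adhesion gene of CA2 and CA3, had log2 ratios of 1.54 and 1.45. Iyd, Grik4, Man1a and Zbtb20 were also past 2-fold, at log2 ratios of 2.20, 1.43, 1.30 and 1.20. Bok, Pou3f1, Cpne4 and Map3k15 lay between log2 ratios of 0.76 and 0.88, and Nectin3 and Mpped1, both at a log2 ratio of -0.12, were slightly lower.

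Dentate granule genes divided. Of 12 listed genes 6 passed 2-fold on the hippocampal side and 2 on the cortical side. The median was 0.84, and 1.40 when the highest line of a symbol was taken in place of the sum of its lines. Dsp, desmoplakin, a desmosome protein that marks granule neurons among neurons, was at 36.4 and 1.42 CPM, a ratio of 25.7-fold (95% counting interval 20.4 to 32.8). Lct, the lactase gene, was at 33.5 and 1.67 CPM (log2 3.69), and Tdo2, tryptophan dioxygenase, at 6.16 and 0.345 CPM (log2 2.41). Prox1, the homeobox factor of granule neurons, was at 36.8 and 9.56 CPM, C1ql2, a synaptic organiser of mossy fibres, at 56.7 and 10.4 CPM, and Dock10 at 91.8 and 43.0 CPM. On the cortical side stood Pdyn, the dynorphin precursor, at 6.94 and 21.4 CPM (log2 -1.50) and Npnt, a matrix protein gene, at 30.2 and 69.1 CPM (log2 -1.17). Trpc6, Plk5, Neurod1 and Stxbp6 were within 2-fold at log2 ratios of 0.61, 0.58, 0.35 and -0.38.

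Neocortical layer genes were mostly higher in the cortical library, with exceptions. Of 18 listed genes 8 were at least 2-fold lower in the hippocampal library and 3 higher, with a median of -0.93. Rspo1, a secreted amplifier of Wnt signalling, had the widest ratio, with 0.814 CPM in the hippocampal and 17.1 CPM in the cortical library and a ratio of 21.0-fold (95% counting interval 16.0 to 28.1) in favour of cortical. The upper-layer factor Cux2 was at 39.2 and 113 CPM (log2 -1.50), and Rorb, the orphan nuclear receptor of layer 4, at 26.2 and 62.1 CPM (log2 -1.21). Foxp2, a forkhead factor of deep-layer neurons, was at 3.45 and 13.3 CPM, and Cplx3, a complexin of subplate neurons, at 10.4 and 24.0 CPM. Hs3st2, Rasgrf2 and Tshz2 were the others past 2-fold, at log2 ratios of -1.47, -1.27 and -1.08. Cux1 (log2 -0.92), Ccn2 (log2 -0.95), Tle4 (log2 -0.21), Fezf2 (log2 -0.18), Scnn1a (log2 -0.11) and Etv1 (log2 -0.04) were lower by less than 2-fold. Higher in the hippocampal library were Bcl11b, a zinc finger factor of subcortically projecting neurons that hippocampal neurons also express, at 144 and 52.5 CPM (log2 1.44), Lmo3 (log2 1.45) and Sulf1 (log2 1.34), with Bcl6 at a log2 ratio of 0.84. The excitatory neuron list held genes of both directions, 1 higher and 2 lower of 10. Tbr1, a T-box factor of early cortical neurons, was at 59.4 and 166 CPM (log2 -1.47), while Neurod6, a basic helix-loop-helix factor of pyramidal neurons, was at 255 and 90.2 CPM (log2 1.49). The vesicular glutamate transporter Slc17a7 differed little, at 1219 and 1019 CPM.

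**Figure D3:**
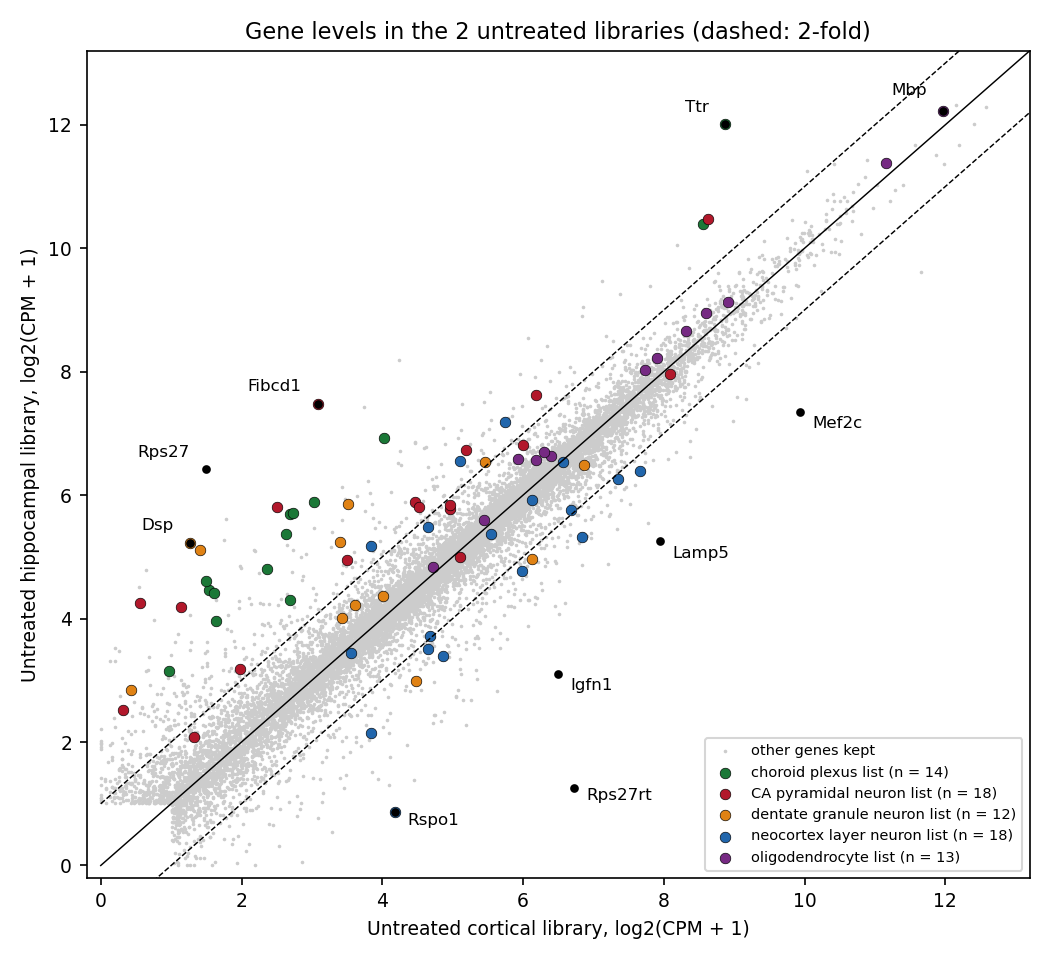
Level of each of the 14496 kept genes in the cortical (horizontal) and hippocampal (vertical) untreated library, as log2(CPM + 1), with the solid line at equality and dashed lines at 2-fold. Coloured points are 5 lists. Choroid plexus and most CA pyramidal genes lie above the upper dashed line, and Mef2c, Lamp5 and Rspo1 below the lower one.

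Most developmental patterning factors were within 2-fold, although a larger share passed it than among all genes kept. Of 23 listed genes 20 were kept, 5 at least 2-fold higher in the hippocampal library and 1 lower. Otx2 (14.6 and 2.13 CPM), which the choroid plexus list also holds, and Lmx1a (2.32 and 0.230 CPM), a roof plate factor, were among those higher. So were Nr2f2, an orphan receptor of caudal pallium, at 32.7 and 11.2 CPM (log2 1.47), Dmrt3 (log2 1.23) and Zbtb20 (log2 1.20). Zbtb20, a repressor needed for CA1 identity, is also counted with the CA pyramidal genes. Emx1, a factor of the dorsal pallium, was lower at 9.77 and 20.7 CPM (log2 -1.01). The pallial factors Lhx2, Emx2 and Pax6 were within 2-fold, at log2 ratios of -0.01, 0.30 and 0.05. Of 5 kept genes of Cajal-Retzius neurons, early-born cells of the marginal zone, Trp73 (log2 1.97) and Nhlh2 (log2 1.77) were past 2-fold at 5.83 CPM or less, and Reln, reelin, was at 78.4 and 77.0 CPM. In the thalamic list Lhx9, a LIM homeobox factor, was at 14.7 and 0.690 CPM (log2 3.22), whereas Ramp3 (log2 -1.75) and Slc17a6, the second vesicular glutamate transporter, (log2 -1.14) were lower, and the other 9 of 12 genes were within 2-fold. Of 12 kept striatal genes 11 were within 2-fold, among them Penk, the enkephalin precursor, at 21.9 and 41.0 CPM (log2 -0.88).

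Interneuron genes differed by class. The GABA-synthesising enzymes Gad1 and Gad2 were at log2 ratios of -0.15 and -0.01, and the vesicular GABA transporter Slc32a1 at a log2 ratio of -0.06. Lamp5, a membrane protein of neurogliaform interneurons and of some upper-layer cortical neurons, was at 37.2 and 245 CPM, 6.60-fold (95% counting interval 6.32 to 6.89) higher in the cortical library. The markers of other interneuron classes Vip (18.6 and 61.0 CPM, log2 -1.66) and Pvalb, parvalbumin, (29.2 and 60.1 CPM, log2 -1.02) were also lower in the hippocampal library. Calb2, calretinin, was higher at 33.2 and 15.1 CPM (log2 1.09), and Sst, somatostatin, was at 169 and 151 CPM. In all, 1 of 16 interneuron genes was at least 2-fold higher and 3 lower.

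Neuropeptide precursors leaned to the cortical side. Of 20 kept genes of 22 listed, 16 were lower in the hippocampal library, 4 of them at least 2-fold, with a median of -0.49. Among all 14496 genes kept, 7176 were lower in that library. Adcyap1, the precursor of PACAP, was at 3.95 and 25.3 CPM, a ratio of 6.41-fold (95% counting interval 5.62 to 7.34) in favour of cortical. Crh, corticotropin-releasing hormone, was at 1.76 and 10.2 CPM (log2 -2.02). Vip and Pdyn, named above, were the others past 2-fold. The other 4 were higher, of which Nts, neurotensin, was the 1 gene past 2-fold, at 3.94 and 1.30 CPM (log2 1.10). Cck, the cholecystokinin precursor, was nearly equal at 248 and 273 CPM.

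Among receptors for glutamate and GABA, single subunits passed 2-fold and most did not. Of 15 kept ionotropic glutamate receptor subunits 2 were at least 2-fold higher in the hippocampal library and 0 lower. Gria1, the AMPA receptor subunit GluA1, was at 1065 and 289 CPM, a ratio of 3.68-fold (95% counting interval 3.62 to 3.75), and the kainate receptor subunit Grik4 at 58.6 and 21.0 CPM. The other AMPA receptor subunits Gria2, Gria3 and Gria4 were at log2 ratios of 0.16, -0.64 and -0.85, and the obligatory NMDA receptor subunit Grin1 at a log2 ratio of 0.12. Of 13 kept GABA-A receptor subunits 1 was higher and 1 lower. Gabra5, whose receptors lie largely outside synapses on pyramidal neurons, was at 203 and 45.0 CPM, a ratio of 4.50-fold (95% counting interval 4.31 to 4.71). Gabrd, the delta subunit of tonic inhibition, was at 22.8 and 75.4 CPM, 3.31-fold (95% counting interval 3.12 to 3.52) higher in the cortical library. None of 7 metabotropic glutamate receptors was 2-fold apart. In the list of 30 synaptic vesicle and postsynaptic genes only Stx1a, syntaxin 1A, was, at 116 and 331 CPM (log2 -1.50), and the list's sums were 23225 and 23036 CPM.

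**Figure D4:**
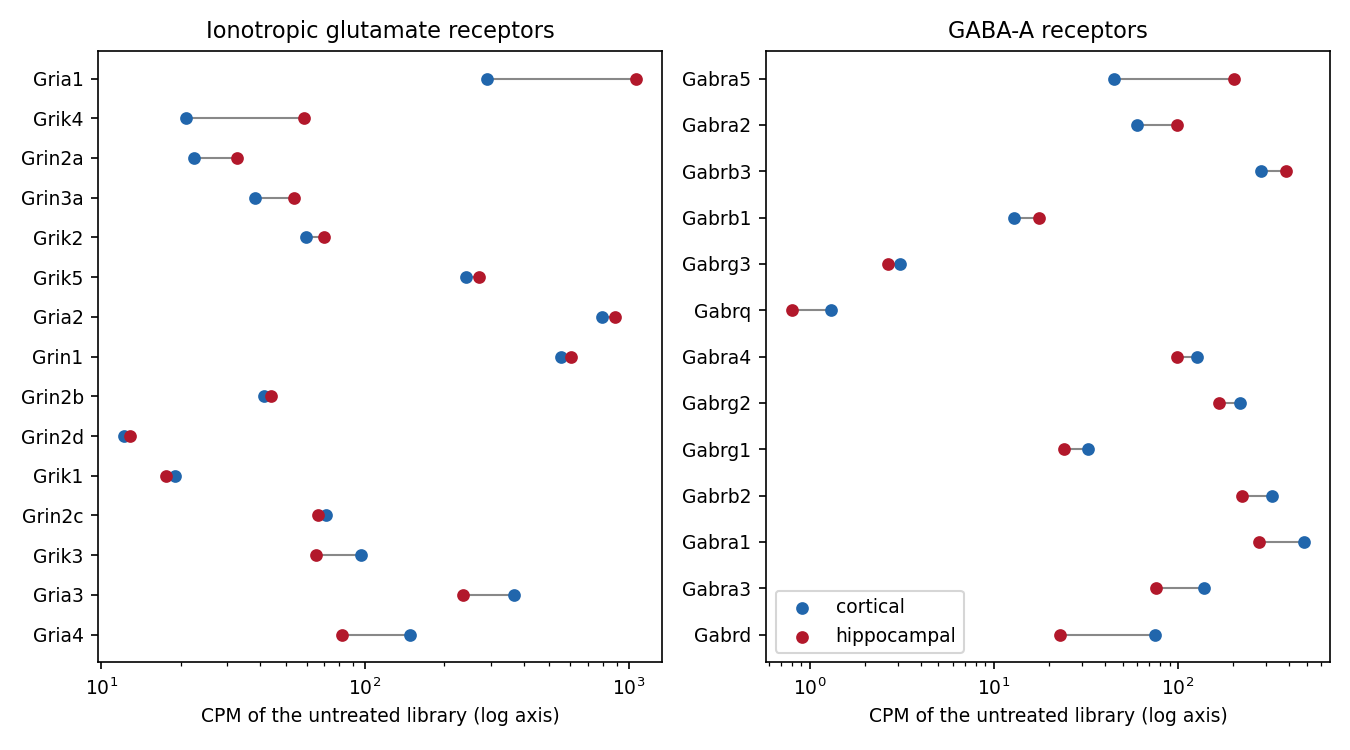
CPM of each kept receptor subunit in the cortical (blue) and hippocampal (red) untreated library, on a log axis, with subunits ordered by their log2 ratio. Gria1, Grik4 and Gabra5 lie at the top with the hippocampal value to the right, and Gabrd at the bottom with the cortical value to the right.

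Of 26 kept receptors for monoamines and acetylcholine 3 were at least 2-fold higher and 1 lower. The dopamine receptor Drd5 was at 12.4 and 1.13 CPM (log2 2.66), the serotonin receptor Htr4 at 10.3 and 1.40 CPM (log2 2.24) and the nicotinic subunit Chrna7 at 17.1 and 5.71 CPM (log2 1.43). Adra1b, an adrenergic receptor, was lower at 4.38 and 10.7 CPM (log2 -1.12). Of the 19 genes of thyroid hormone and retinoid handling 4 were higher and 0 lower. Among them were Ttr, also counted with the choroid plexus, and Crym, a cytosolic thyroid hormone binding protein, at 177 and 34.0 CPM (log2 2.35). The others were Dio3, the deiodinase that inactivates the hormone, at 4.56 and 0.479 CPM (log2 1.91), and Stra6, the receptor for retinol-binding protein (log2 1.28). Dio2, the activating deiodinase, and the receptor Thrb were at log2 ratios of -0.93 and -0.97, just inside 2-fold on the cortical side.

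Activity-regulated genes lay on both sides. Of 20 immediate early genes 2 were at least 2-fold higher and 1 lower, with a median of -0.25. Nr4a3 was at 86.6 and 24.0 CPM (log2 1.81), and Nr4a2, which encodes the Nurr1 that the study delivered by virus in other libraries, was at 58.3 and 19.0 CPM, a ratio of 3.07-fold (95% counting interval 2.86 to 3.30). The 2 lines of Nr4a2 differed, with log2 ratios of 2.38 and 0.74, the latter within 2-fold. Neither untreated library is labelled as given the Nurr1 virus, and Foxa2, the second delivered gene, had 0 counts in both. Npas4 was lower at 11.1 and 25.1 CPM (log2 -1.11), and Fos, Egr1 and Arc were at log2 ratios of -0.99, -0.84 and -0.15. Of 17 kept immature neuron genes 2 were higher and 2 lower, the latter being Tbr1 and Stmn1, stathmin, at 275 and 575 CPM (log2 -1.06).

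Reactive astrocyte genes were low, and most lay to the hippocampal side. Of 16 kept, 14 were higher in the hippocampal library, 2 of them at least 2-fold, and 1 gene was at least 2-fold lower. The list's median was 0.28. Among all 14496 genes kept, 7176 were lower in the hippocampal library. Serpina3n, a secreted protease inhibitor, was at 128 and 42.0 CPM (log2 1.59) and Cd44, the hyaluronan receptor, at 7.16 and 2.99 CPM (log2 1.03). The nonclassical class I gene H2-T23 was lower at 8.15 and 18.6 CPM (log2 -1.10). Dcn, decorin, was the 1 gene past 2-fold of 14 mural and fibroblast genes, at 43.5 and 14.0 CPM (log2 1.57). No kept gene was 2-fold apart among 20 of oxidative phosphorylation, 15 of cholesterol synthesis, 18 of extracellular matrix and perineuronal nets, 18 of interferon response and class I antigen presentation, or 12 of proliferation. The interferon and class I list leaned the same way as the reactive astrocyte list, with 14 of 18 genes higher in hippocampal and a median of 0.28.

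By size alone, and beside genes already named, the largest ratios with at least 10 CPM on the hippocampal side included Slc8a1, the sodium and calcium exchanger, at 292 and 17.9 CPM (log2 3.96), Shisa6, an auxiliary protein of AMPA receptors, at 172 and 12.3 CPM (log2 3.69) and Slc9a4, a sodium and proton exchanger, at 21.8 and 0.460 CPM (log2 3.97). Lrrc10b (log2 3.83), the cytokine gene Il16 (log2 3.52) and the heparan sulfate enzyme gene Ndst4 (log2 3.32) followed. For Slc8a1 the table has 4 lines, and 1 of them held 7541 counts in the hippocampal and 0 in the cortical library. On the cortical side stood Mef2c, an activity-regulated transcription factor of neurons, at 162 and 979.7 CPM, 6.03-fold (95% counting interval 5.91 to 6.16) higher in cortical and spread over 18 lines of the table. Igfn1 was at 7.61 and 89.2 CPM (log2 -3.39). Cckbr, the brain receptor for cholecystokinin, was at 15.8 and 90.3 CPM (log2 -2.44), and Sema3a, a repulsive axon guidance cue, at 5.39 and 34.6 CPM (log2 -2.48). Dkkl1, Rasgef1c, Myl4, Cers1, Atp6ap1l, BC030499 and Kcnh4 ranged from -3.07 to -2.38.

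On the log2(CPM + 1) scale the largest ratio in each direction belonged to a ribosomal protein gene and its near copy, and these values are uncertain. As plain ratios of CPM, Ndst4 (68.7-fold), Hbb-bt (53.0-fold), Nutf2-ps1 (48.0-fold) and Slc9a4 (47.5-fold) exceeded Rps27 (46.6-fold). Rps27 was at 84.8 and 1.82 CPM (log2 4.93) and Rps27rt, its copy without introns, at 1.39 and 105 CPM (log2 -5.46). Their sum was 86.1 and 106 CPM (log2 -0.30). In GENCODE M21 on GRCm38, Rps27 lies at chr3:90212522-90213651 on the minus strand with 4 exons, and Rps27rt at chr9:114982366-114982739 on the minus strand with 1 exon. The protein-coding sequences of Rps27-201 and Rps27rt-201 have 255 bases each and differ at 0 positions, so the run is shown once, because a read inside it cannot be assigned to either gene by its sequence; capitals mark the start and stop codons.
Rps27 and Rps27rt: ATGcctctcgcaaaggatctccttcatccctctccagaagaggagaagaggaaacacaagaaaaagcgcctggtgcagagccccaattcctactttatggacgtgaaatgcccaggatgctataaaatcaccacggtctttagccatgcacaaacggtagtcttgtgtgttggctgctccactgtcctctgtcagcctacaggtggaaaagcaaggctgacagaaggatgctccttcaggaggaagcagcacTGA
The same exchange between the copies was present in the other 2 regional pairs, with Rps27 at log2 ratios of 4.72 and 2.72 and Rps27rt at -5.45 and -7.03. The sum of both copies was at a log2 ratio of 0.26 in the amyloid beta control pair but at -1.34 in the N+F pair (105 and 266 CPM), where summing did not remove the difference. Nutf2-ps1 (log2 4.15) and Apoo-ps (log2 2.79) likewise lost their difference when summed with Nutf2 and Apoo, to log2 ratios of 0.05 and 0.06. The globin genes Hbb-bt and Hba-a1, at log2 ratios of 3.23 and -2.79, gave log2 ratios of -0.41 and -0.50 when summed with Hbb-bs and Hba-a2. How reads were divided between such copies was not tested.

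The same regional question can be put to the amyloid beta control pair and the N+F pair, which share no library with the untreated pair. Only the 14496 members were counted there, so genes that reached 1 CPM in those pairs alone are left out. Of the 12898 members measured in the amyloid beta control pair, 491 (3.81%) were at least 2-fold higher in the hippocampal library. In the cortical library 266 (2.06%) were. Of the 13232 members measured in the N+F pair these numbers were 2299 (17.4%) and 794 (6.0%). Of the 459 genes higher in the untreated hippocampal library 309 reached 1 CPM in the amyloid beta control pair. There 67 (21.7%) were again 2-fold higher and 10 (3.24%) were 2-fold lower, against 3.81% and 2.06% of all members measured. In the N+F pair 343 were measured, 71 (20.7%) again higher and 52 (15.2%) lower, against 17.4% and 6.0% of all members measured in that pair. Of the 334 genes higher in the untreated cortical library 191 were measured in the amyloid beta control pair, with 14 (7.33%) in the same and 25 (13.1%) in the opposite direction. The N+F pair measured 212 of them, with 27 (12.7%) in the same and 37 (17.5%) in the opposite direction. For the genes higher in cortical the same-direction shares of 7.33% and 12.7% stand against 2.06% and 6.0% of all members measured. The opposite shares of 13.1% and 17.5% stand against 3.81% and 17.4%.

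Over all members measured, 3.81% in the amyloid beta control pair and 17.4% in the N+F pair were at least 2-fold higher in hippocampal. In cortical 2.06% and 6.0% were. Of the 499 genes 2-fold apart in the untreated pair with at least 10 CPM in either untreated library, 4 were past 2-fold in the same direction in all 3 pairs. Besides Rps27, Rps27rt and Apoo-ps, the uncertain copies above, this left Cfap44, a gene of the ciliary axoneme. Genes under that level were not counted. Among them was Dnah6, an axonemal dynein heavy chain gene at 9.87 CPM in the untreated hippocampal library. Its log2 ratios were 1.68 in the untreated, 2.61 in the amyloid beta control and 1.75 in the N+F pair. Cfap44 was at 17.8 and 4.25 CPM in the untreated pair, 39.0 and 14.2 CPM in the amyloid beta control pair and 34.8 and 14.9 CPM in the N+F pair. Its direction in each pair was fixed by the selection. Regional neuron genes were often below 1 CPM elsewhere: of the 18 genes of CA pyramidal neurons 11 and 10 reached 1 CPM in the other pairs, with 2 and 1 higher and 1 and 2 lower. For the neocortex layer list the median was 0.06 in the amyloid beta control pair and 0.83 in the N+F pair, against -0.93 in the untreated pair. In the N+F pair 5 of 15 measured layer genes were at least 2-fold higher in hippocampal and 2 lower, against 17.4% and 6.0% of all members. No median over all members was taken for that pair, so a shift of the whole pair cannot be told apart from one of this list.

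**Figure D5:**
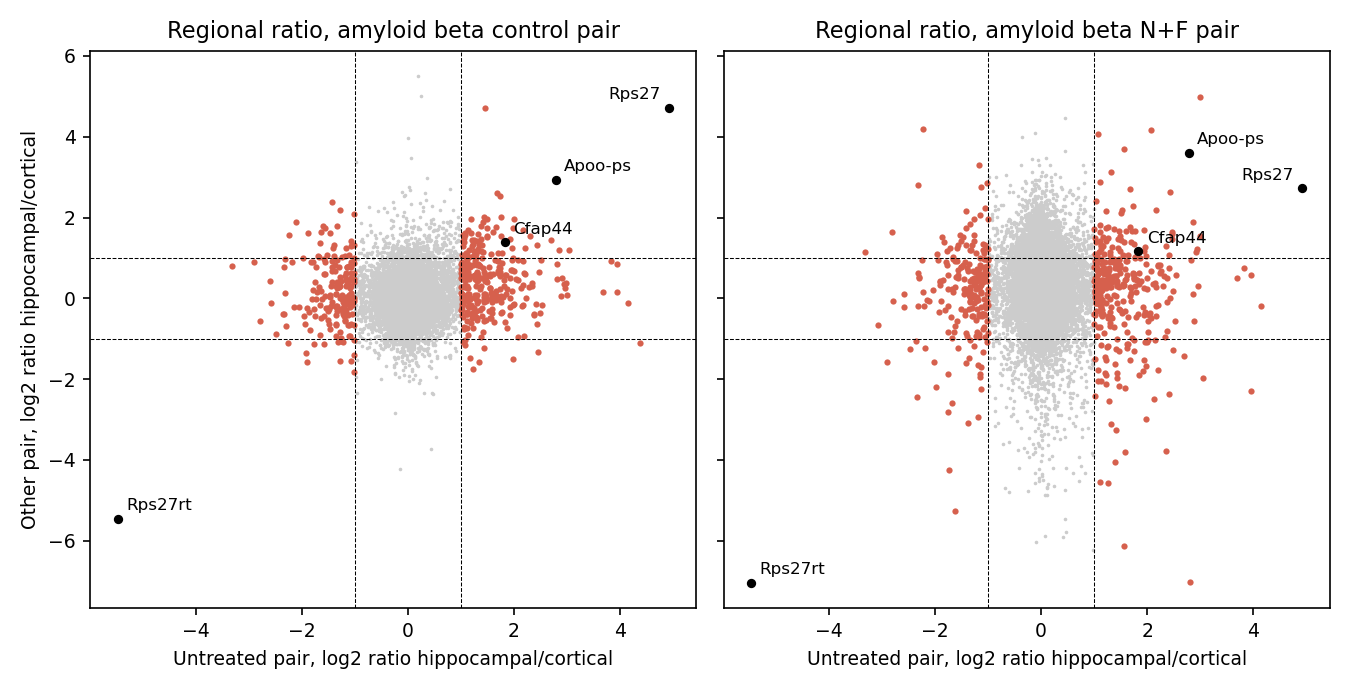
Regional log2 ratio of CPM + 1 in the untreated pair (horizontal) against the amyloid beta control pair (left) and the N+F pair (right). There is 1 point per gene of the 14496 members that also reached 1 CPM in the pair plotted vertically. Red points were 2-fold apart in the untreated pair, dashed lines mark 2-fold, and the 4 labelled genes are past 2-fold in the same direction in all 3 pairs.

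A test of region across the 6 culture libraries, with condition as a term, called 0 of 15692 genes (0.0%) by edgeR's quasi-likelihood test with Benjamini-Hochberg adjustment. It has 2 residual degrees of freedom and takes the 3 conditions as the replicates, 365 genes had an unadjusted p under 0.05 and the smallest adjusted p, that of Rps27rt, was 0.838. DESeq2's Wald test on the same design called 26 of 19932 genes, 16 higher and 10 lower in the hippocampal libraries. Without the untreated pair edgeR called 2 genes, Rps27rt (adjusted p = 0.0114) and Atp6v0c-ps2 (adjusted p = 0.000445), both lower in hippocampal. The test asks about the regional difference averaged over the 3 conditions, and cannot decide on the untreated pair alone. Fibcd1 and Ttr, with untreated log2 ratios of 4.39 and 3.13, had edgeR adjusted p-values of 0.999 each over the 3 conditions. Both genes lay at 1.73 CPM or less in every amyloid beta library, so these p-values cannot decide on their untreated difference.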

How the data were processed

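RNA was extracted with Trizol and libraries were made with a SMARTER mRNA-seq kit, per the labels' protocols. The deposited culture and tissue tables hold whole-number read counts, which the authors gave for 36780 lines of the culture table. The submitters' processing notes name TopHat, HISAT2 and edgeR and the human build hg19, although the symbols are mouse. The build and annotation behind the counts are therefore not established, and no coordinates were taken from the tables. Lines of the same symbol (12238 repeats, not otherwise labelled) were summed to 24542 symbols and divided by the library total. A gene was kept at 1 CPM in either untreated library and called at 2-fold on log2(CPM + 1). Ratio intervals are exact conditional binomial intervals.

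The members, gene lists and tests were chosen with earlier results of these data known. Named genes are the 15 largest ratios in each direction with 10 CPM or more (symbols of the Gm and Rik series left out: 4 higher and 13 lower), up to 4 genes of each list with the largest ratio, the genes of the regional lists by value or range, and the delivered genes. Further list members within 2-fold, copy partners and genes called by an alternative were named after their values were seen. Region was tested with edgeR 4.0.16 and DESeq2 1.42.0 in R 4.3.3, and the calculations were tested on simulated data. Coding sequences came from GENCODE M21. Some genes are not reported here. The 7 tissue libraries entered only the rank correlations.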

Additional observations from a re-analysis of the deposited data

Results flagged for a closer look

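Among the 30 genes named for the size of their ratio in the untreated pair, 3 are given here because the regional ratio had the opposite sign and passed 2-fold in another pair, and each such difference was not tested. Fibcd1 had a log2 ratio of -1.11 in the amyloid beta control pair against 4.39 in the untreated pair, with no more than 1.73 CPM in either amyloid beta control library. Dsp was at -2.29 in the N+F pair (3.18 and 19.4 CPM) against 3.95. Rspo1 was at 1.16 in the N+F pair (7.46 and 2.80 CPM) against -3.32.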

How the results depend on the processing

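The count of genes 2-fold apart in the untreated pair was 793, and 794 with TMM scaling, 793 with DESeq2 size factors, 1146 with a pseudocount of 0.1 CPM and 1055 with the highest line of a symbol in place of the sum. Without a filter it was 793 by construction, since a gene under 1 CPM in both libraries cannot reach 2-fold with a pseudocount of 1 CPM. A filter of 10 CPM left 499 (257 higher in hippocampal), and a 4-fold threshold left 141 (98 and 43). Of the 793 genes 738 remained past 2-fold in the same direction with the highest line. The 30 genes named for the size of their ratio stayed past 2-fold in the same direction with the highest line, and the other settings could hardly have changed this. With the highest line the list medians moved from 0.84 to 1.40 for dentate granule, from 0.77 to 0.56 for Cajal-Retzius, from 0.06 to -0.16 for excitatory neuron, from -0.10 to 0.15 for striatal, from -0.02 to 0.21 for monoamine and acetylcholine receptor and from 0.28 to 0.07 for interferon genes; the others moved by 0.1 or less. For region over the 3 conditions DESeq2 called 26 genes against 0 by edgeR, and leaving out a condition's pair in turn gave 0 to 2, the cause of which was not tested. The region fit already pairs libraries by condition, and without that term edgeR also called 0. By replicate number, no paired analysis was possible because each culture group has 1 library, and the tissue groups that share numbers were not compared. Of 1955 symbols with at least 2 lines of 10 CPM or more, 107 had lines 2-fold apart in opposite directions, 102 of them within 2-fold when summed. A gene at 1 CPM rests on 67.6 and 52.2 counts in the hippocampal and cortical library.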

Other observations

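Some families outside the lists also differed between the untreated libraries, and they were chosen after their values were seen. Of 7 kept Kcnh genes, voltage-gated potassium channels of the ether-a-go-go family, 4 were at least 2-fold higher in the cortical library and 0 in the hippocampal one. Kcnh3 was at 93.0 and 189 CPM in the hippocampal and cortical library, Kcnh5 at 3.43 and 16.2 CPM, Kcnh7 at 6.16 and 19.0 CPM, and Kcnh4 is given above. Copines, calcium-dependent membrane-binding proteins, divided: of 9 kept, Cpne6 (531 and 114 CPM), Cpne7 (374 and 65.9 CPM) and Cpne2 (log2 1.30) were higher in the hippocampal library, and Cpne9 (log2 -1.67) and Cpne5 (log2 -1.14) were lower. Camk2n1, an inhibitor of the kinase CaMKII, was at 782 and 3226 CPM (log2 -2.04), while Camk2a was at 5114 and 4536 CPM.

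In the corticosteroid axis Nr3c2, the mineralocorticoid receptor, was at 115 and 21.2 CPM (log2 2.38), whereas Nr3c1, the glucocorticoid receptor, was at 93.4 and 126 CPM (log2 -0.42). Fkbp5, a target gene of both receptors, was at a log2 ratio of 1.05 and the corticotropin-releasing hormone receptor Crhr1 at 14.3 and 40.9 CPM (log2 -1.46). Among axon guidance genes the semaphorin receptors Nrp1 (125 and 41.6 CPM) and Nrp2 (70.3 and 25.3 CPM) were higher in the hippocampal library, and Epha6, Epha7 and Epha3 were higher at log2 ratios of 2.11, 1.41 and 1.00 of 8 kept EphA receptors. Of 4 kept ephrin A ligand genes only Efna5 was past 2-fold, lower at 10.4 and 49.9 CPM (log2 -2.15). The 7 kept semaphorin 3 genes divided. Sema3b (log2 1.61) and Sema3e (log2 1.13) were higher in the hippocampal library, and Sema3a (log2 -2.48) and Sema3f (log2 -1.20) were lower. Of 9 kept axonemal dynein heavy chain genes 5 were at least 2-fold higher in the hippocampal library and 0 lower, with Dnah9 at 27.3 and 2.99 CPM, and of 20 kept Cfap genes 6 were higher and 0 lower. The ependymal list, given above, was at sums of 55.0 and 17.5 CPM in the same libraries, and its part in the cilia genes was not tested.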
